A study of Homo sapiens with 12 samples.

Results

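The response of ovarian cancer cells to paeonol (PAE), a phenolic compound of peony root bark, was compared gene by gene between SKOV3 cells and the cisplatin-resistant line SKOV3/DDP. All 12 RNA sequencing libraries of the series were used, 3 each of untreated SKOV3, SKOV3 with PAE (SKOV3_PAE), untreated SKOV3/DDP and SKOV3/DDP with PAE (SKOV3/DDP_PAE). SKOV3 is an established human ovarian adenocarcinoma line, and SKOV3/DDP was raised from it as a stably resistant line, so that every contrast between the lines rests on 1 line of each kind. The labels give neither a dose nor a duration of PAE, and the codes of the treated libraries carry a different number in each line with no stated meaning, so equal exposure of the lines is not known. Of 47219 loci, 46350 carried a gene name, and 17133 of these passed the filter on low counts and were tested. A gene was called changed at an adjusted p under 0.05 (edgeR quasi-likelihood test, Benjamini-Hochberg adjustment over all genes tested). It was called shared when both lines were called in the same direction and opposed when they were called in opposite directions. The difference of the effects is the log2 fold change in SKOV3/DDP minus that in SKOV3, tested as an interaction term.

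Cancer cells answer a small molecule through a limited set of transcription programmes. Interferon induces antiviral genes that sense or bind viral RNA, YAP acts through the DNA-binding TEAD factors on genes of growth and adhesion, and FOXO3 drives genes of autophagy and cell cycle exit. De novo purine synthesis builds inosine monophosphate in the cytosol and branches to adenine and guanine nucleotides, and proliferating tumour cells rely on it. The study addressed the kinase NEK6, FOXO3, the ubiquitin ligase component FBXW7 and MYC as 1 axis upstream of this pathway, with PAE as an agent against NEK6, so these genes are given for both lines below. NEK6 was picked by the study in part from the untreated libraries of both lines used here.

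The libraries held 14610008 to 18263479 counts, and the nearest library of each of the 12 was 1 of its own group. The 3 untreated SKOV3 libraries stood apart in base composition. The Spearman correlation of a gene's deviation from its mean over the libraries with its GC content was 0.674 to 0.679 in these 3 and -0.539 to -0.332 in the other 9, and their TMM factors were 0.64 to 0.67 against 0.97 to 1.23. Each comparison was therefore fitted as normalized by TMM and again with each library's trend on GC and on gene length taken out, which was possible for 15682 genes (91.5% of those tested). In the TMM fit the effect of PAE followed GC content in SKOV3 (Spearman -0.796 across genes) more than in SKOV3/DDP (-0.172), and after removal these values were 0.0069 and -0.0013. Removal also takes out any response that itself follows GC content, and the 2 cannot be told apart because the trend covers all of untreated SKOV3. Nothing in the labels shows that the 3 libraries of a group came from separate cultures, so p-values may measure technical spread. In bulk RNA, fewer cells of a kind and less RNA per cell cannot be told apart.

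The lines differed in identity genes. Markers of intestinal epithelium, a list of 8 genes, summed to 539 to 583 counts scaled to library size (CPM, TMM-normalized) in untreated SKOV3/DDP and 164 to 249 with PAE, but to 0.254 to 1.42 in SKOV3 and 1.17 to 2.16 in SKOV3_PAE, with 6 of the 8 genes without a count in untreated SKOV3. Epithelial markers summed to 4622 to 5228 CPM in SKOV3, 676 to 1344 in SKOV3_PAE, 10644 to 12864 in SKOV3/DDP and 2337 to 3346 in SKOV3/DDP_PAE, so the sum, most of it KRT8 and KRT18, was lower with PAE in every library of both lines. Gene by gene the 5 epithelial markers did not move together. In SKOV3 EPCAM and CDH1 were higher (2.32 and 2.82 on the log2 scale, TMM) and KRT8 and KRT18 lower (-2.59 and -1.63). Of all genes tested, 42.6% were higher and 32.7% lower there. After removal of the trend described above 4 were higher and only KRT8 lower (-0.56), against 25.9% and 20.8% of all genes. In SKOV3/DDP 4 of the 5 were lower in both fits, against 14.7% (TMM) and 16.5% (trend removed) of all genes tested. Opposed were 1 gene by TMM and 3 with the trend removed, higher in SKOV3 and lower in SKOV3/DDP (all genes, 4.10% and 4.45%). Ovarian and Müllerian markers, a list of 7 genes, summed to 178 to 184 CPM in SKOV3 and 39.6 to 96.3 in SKOV3_PAE. In SKOV3/DDP they summed to 375 to 477 CPM untreated and 267 to 391 with PAE, the latter above the intestinal sum. SOX17, a factor of that lineage, had no count, while other members carried these sums. SKOV3 is known to lack CDKN2A expression, yet CDKN2A averaged 1545 CPM in the libraries labelled SKOV3, against 0.063 CPM in untreated SKOV3/DDP. The names are kept as the labels give them, and the part of these identity differences in the results below was not tested.

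PAE called 12895 genes in SKOV3 (75.3% of those tested) and 4526 in SKOV3/DDP (26.4%) in the TMM fit. In SKOV3, 7292 were higher (42.6%) and 5603 lower (32.7%), and in SKOV3/DDP 2014 were higher (11.8%) and 2512 lower (14.7%). After removal of the trend the calls in SKOV3 fell to 7319 (46.7%; 25.9% higher, 20.8% lower), while SKOV3/DDP had 4993 (31.8%; 15.4% higher, 16.5% lower). The effects themselves differed between the lines in 10778 genes (62.9%), of which 4374 had a positive difference (25.5%) and 6404 a negative one (37.4%). Once the trend was removed 6263 differed (39.9%; 18.3% positive, 21.6% negative), and 1781 positive and 2285 negative calls were made in both fits. The call turned from negative by TMM to positive with the trend removed in 382 genes, and from positive to negative in 218. The counts for gene lists given later are to be read against these shares of all genes tested.

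Whether the lines answered alike depended on the trend. In the TMM fit 3448 genes were called in both lines, and 2162 of them (62.7%) moved the same way. These were 993 genes higher in both lines (5.80% of genes tested) and 1169 lower in both (6.82%), while 702 were higher in SKOV3 and lower in SKOV3/DDP (4.10%) and 584 the reverse (3.41%). With the trend removed 2421 genes were called in both, and 1178 of them (48.7%) moved the same way, as 670 higher (4.27%) and 508 lower (3.24%) against 698 (4.45%) and 545 (3.48%) opposed. A shared direction did not mean an equal effect. The difference was also called in 1168 of the 2162 shared genes by TMM and in 213 of the 1178 with the trend removed. Of all genes tested it was called in 62.9% and 39.9%. Across all genes the Pearson correlation of the 2 log2 fold changes was 0.115 in the TMM fit and 0.024 with the trend removed, where genes are not independent and the 2 contrasts share no library.

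**Figure D1:**
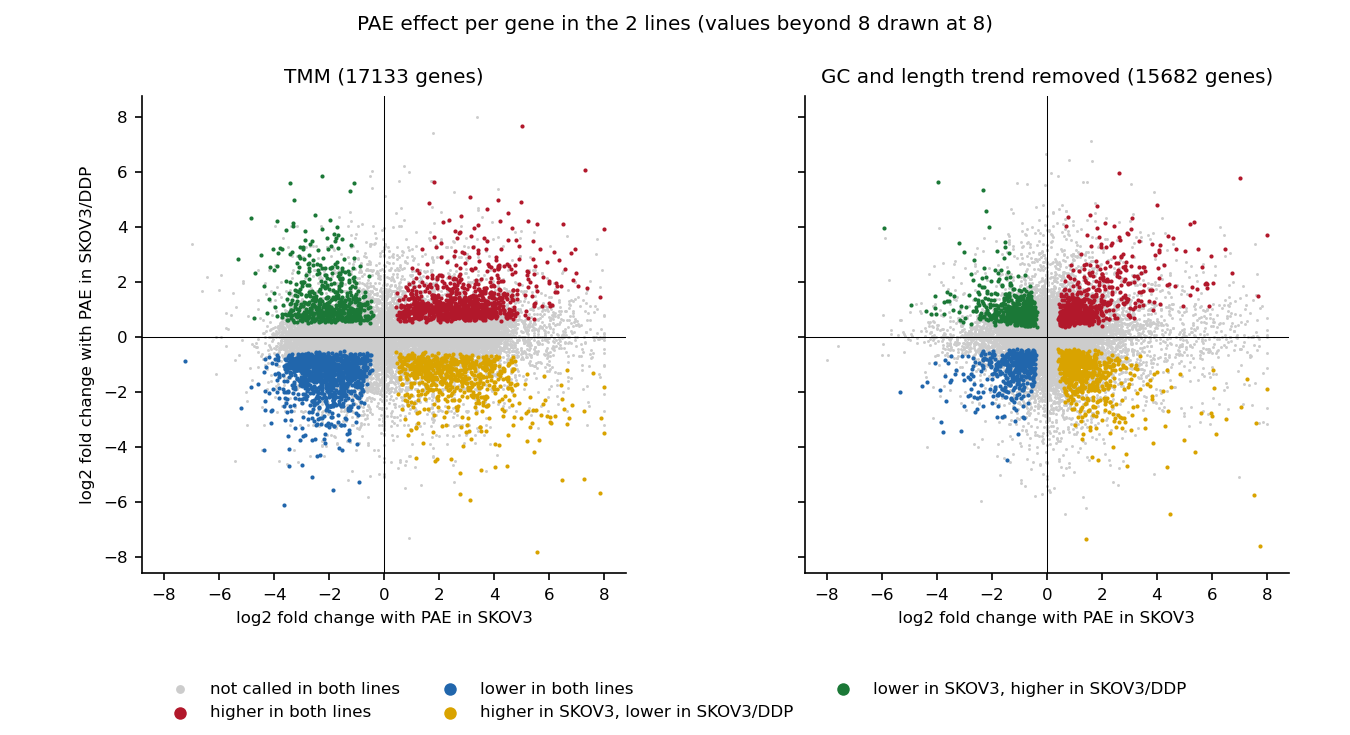
Log2 fold change with PAE in SKOV3 (horizontal axis) against SKOV3/DDP (vertical axis) for each gene, by TMM (left, 17133 genes) and with the GC and length trend removed (right, 15682 genes). Colours mark genes called in both lines in the same or in opposite directions, values beyond 8 are drawn at 8, and the cloud is wider along the SKOV3 axis in the left panel than in the right.

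The same-sign share differed between bins of GC content in the TMM fit and was highest in the lowest and the highest bin. Over 4 equal bins of genes from low to high GC content it was 66.2%, 50.9%, 59.5% and 69.4%, and after removal of the trend 48.2%, 48.5%, 51.6% and 46.2%. The median effect of PAE in SKOV3 was 3.10 on the log2 scale in the bin of lowest GC content and -2.21 in the highest by TMM, and 0.17 and 0.10 after removal, while in SKOV3/DDP it ran from 0.19 to -0.24 by TMM. Some calls changed class between the fits, with 99 genes moving from higher in both lines to lower in SKOV3 and higher in SKOV3/DDP, and 145 from lower in both to higher in SKOV3 and lower in SKOV3/DDP. The genes that kept their class in both fits were 332 higher in both lines, 311 lower in both, 293 higher in SKOV3 and lower in SKOV3/DDP, and 214 lower in SKOV3 and higher in SKOV3/DDP. The genes called shared or opposed below were taken from these unless stated. Other genes below are members of the lists or have large differences and lie outside these classes. Some of them are given by TMM alone, and whether their values hold with the trend removed is not shown.

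**Figure D2:**
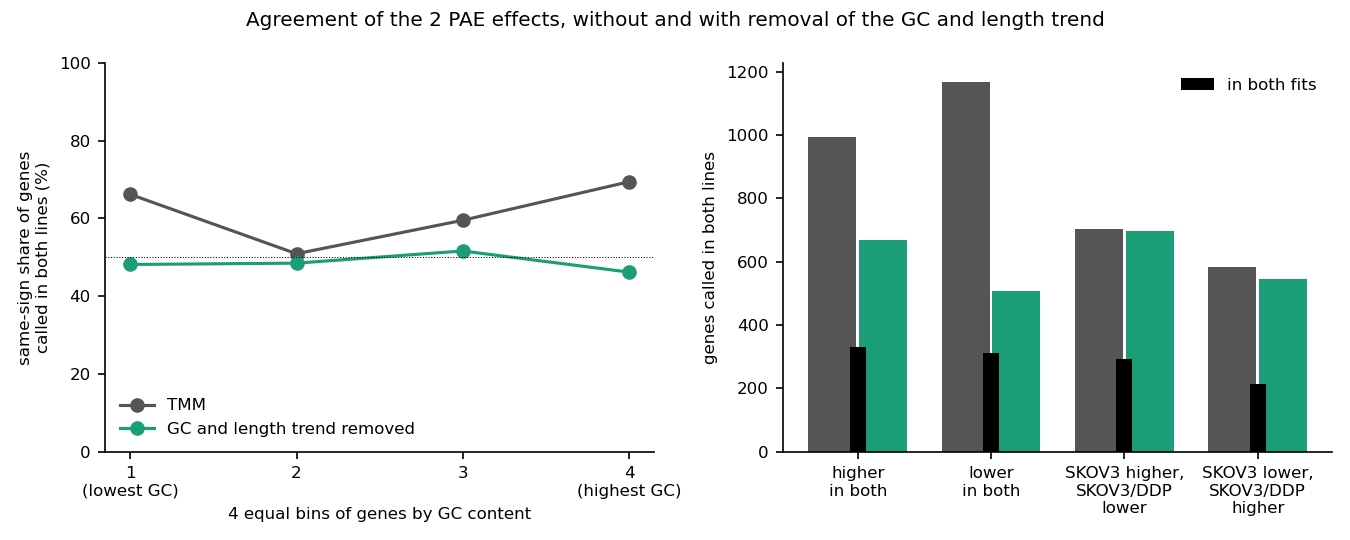
Left, the share of genes called in both lines that moved the same way (percent), by bin of GC content, from 50.9% to 69.4% in the TMM fit (grey) and from 46.2% to 51.6% with the GC and length trend removed (green); the dotted line is at equal shares. Right, genes of each shared or opposed class in each fit, with a black bar for those in both fits, which run from 214 to 332.

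Among genes higher in both lines, NR4A2 ranked highest by the smallest of its 4 log2 fold changes over lines and fits. NR4A2 is an immediate early orphan nuclear receptor (chr2:156324432-156332724, minus strand, GRCh38). SKOV3 held it at 5.14, 3.92 and 4.92 CPM untreated and 30.4, 82.7 and 11.9 CPM with PAE. The SKOV3/DDP libraries held 7.15, 7.77 and 5.2 CPM untreated and 40.6, 38.5 and 34.2 CPM with PAE. Every treated library lay above every untreated one in each line, with log2 fold changes of 3.16 ± 0.51 (SE; adjusted p = 4.09e-05) and 2.49 ± 0.49 (adjusted p = 0.0023) by TMM, and 3.53 and 2.55 with the trend removed. Next by the same ranking were SIPA1L2, a Rap GTPase-activating protein (2.79 in SKOV3 and 2.12 in SKOV3/DDP by TMM), TBX19, a T-box factor (2.70 and 2.03), and TMEM81 (2.24 and 1.87). MKX, a homeobox factor of tendon, rose by 4.15 in SKOV3 and had no count in untreated SKOV3/DDP against 14 counts with PAE, at least 3.86-fold higher by a floor of 3 counts over the group. AOC3, an amine oxidase, had fold changes of 1.80 and 3.63, but its SKOV3 libraries overlapped and the call in SKOV3 was lost when SKOV3 replicate 2, SKOV3 replicate 3 or SKOV3_PAE replicate 1 was left out.

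MAP1LC3B and FOXO3 stood among the shared rises. MAP1LC3B encodes LC3B, which marks autophagosome membranes (chr16:87392336-87404774, plus strand). It stood at 231, 138 and 204 CPM in SKOV3 and 1035, 469 and 734 CPM in SKOV3_PAE, with no overlap. The SKOV3/DDP libraries held 142, 723 and 159 CPM untreated and 973, 936 and 918 CPM with PAE. Untreated SKOV3/DDP replicate 2 stood far above its group, as it did for HSPA6. The log2 fold changes were 1.97 ± 0.50 and 1.47 ± 0.49 (adjusted p = 0.0023 and 0.039) and differed by -0.50 ± 0.68 (adjusted p = 0.55), the SKOV3/DDP call was lost on leaving out 6 of the 12 libraries in turn, SKOV3 replicate 3, untreated SKOV3/DDP replicates 1 and 3 and each SKOV3/DDP_PAE library, and the effect was 2.65 without untreated SKOV3/DDP replicate 2. FOXO3 (chr6:108559825-108684774, plus strand) stood at 9.31, 3.83 and 10.8 CPM in SKOV3 and 60.5, 44.5 and 40.2 CPM in SKOV3_PAE. SKOV3/DDP cells gave 33.9, 36.9 and 34.1 CPM untreated and 63.4, 58.4 and 83.3 CPM with PAE, so that the groups did not overlap in either line. Its log2 fold changes were 2.60 ± 0.32 and 0.97 ± 0.30 (adjusted p = 2.35e-06 and 0.026), the rise was larger in SKOV3 by TMM (difference -1.63 ± 0.42, adjusted p = 0.0035), and with the trend removed they were 1.51 and 0.96 with a difference of -0.55 ± 0.32 (adjusted p = 0.18). The call of FOXO3 in SKOV3/DDP was lost without untreated replicate 1, untreated replicate 3 or PAE replicate 3.

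NEK6, a mitotic serine/threonine kinase (chr9:124257606-124353307, plus strand), was lower with PAE in both lines. It stood at 18.2, 18.6 and 16.8 CPM in SKOV3 and 5.52, 5.23 and 3.05 CPM in SKOV3_PAE. Untreated SKOV3/DDP gave 156, 122 and 141 CPM, and SKOV3/DDP_PAE 38.6, 32.9 and 48.5 CPM. The resistant line kept more NEK6 with PAE than SKOV3 had without it, and in each line the groups were well apart. The log2 fold changes were -1.96 ± 0.25 (adjusted p = 3.51e-06) and -1.81 ± 0.24 (adjusted p = 0.000179), and their difference was 0.15 ± 0.33 (adjusted p = 0.73) by TMM and -0.05 ± 0.30 with the trend removed. The other members of the axis did not move together. FOXO1, a relative of FOXO3, rose in SKOV3 (2.61) and not by test in SKOV3/DDP (-0.59, adjusted p = 0.25), a difference of -3.20 ± 0.58 (adjusted p = 0.000193), and with the trend removed it stood at 0.96 (adjusted p = 0.046) and -0.65 with a difference of -1.60 (adjusted p = 0.014). FBXW7, which targets MYC for degradation, rose by 2.63 in SKOV3 by TMM but stood at -0.15 (adjusted p = 0.66) with the trend removed, and in SKOV3/DDP at 0.62 (adjusted p = 0.096). MYC itself passed in neither line by TMM (0.31 and -0.23), and with the trend removed it was called higher in SKOV3 (1.75, adjusted p = 0.00104) with a difference of -1.81 (adjusted p = 0.009).

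Among genes lower in both lines, SSTR5, a somatostatin receptor (chr16:1072756-1081454, plus strand), ranked at the top by the smallest of its 4 falls over lines and fits. It stood at 20.7, 19.7 and 15.5 CPM in SKOV3 and 0.581, 0.609 and 0.316 CPM in SKOV3_PAE. The values in SKOV3/DDP were 7.50, 6.25 and 7.59 CPM untreated and 0.638, 1.13 and 1.87 CPM with PAE. Both falls were called, -5.19 ± 0.43 and -2.55 ± 0.37 by TMM and -2.53 and -2.20 with the trend removed, and the antisense gene SSTR5-AS1 averaged 3.17 CPM, whose reads cannot be told apart from SSTR5 without the strand of counting. TGM2, the tissue transglutaminase that crosslinks matrix proteins (chr20:38127385-38166508, minus strand), stood at 3048, 2685 and 2810 CPM in SKOV3 and 243, 469 and 284 CPM in SKOV3_PAE. In SKOV3/DDP it was far less abundant, at 40.9, 27.6 and 30.7 CPM untreated and 7.36, 4.23 and 9.30 CPM with PAE. Its falls of -3.10 ± 0.31 (adjusted p = 3.2e-07) and -2.25 ± 0.31 (adjusted p = 0.000252) became -1.97 and -2.12 with the trend removed, and the difference was not called in either fit (0.85 ± 0.42 and -0.16 ± 0.34). DDR1, a collagen receptor kinase, fell by -3.81 in SKOV3 and -2.19 in SKOV3/DDP. APOBEC3B, a cytidine deaminase, fell by -1.94 in SKOV3/DDP, and in SKOV3 it rested on 5 counts against none with PAE. The calls of NR4A2, NEK6, SSTR5 and TGM2 held in each line with any of the 12 libraries left out.

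**Figure D3:**
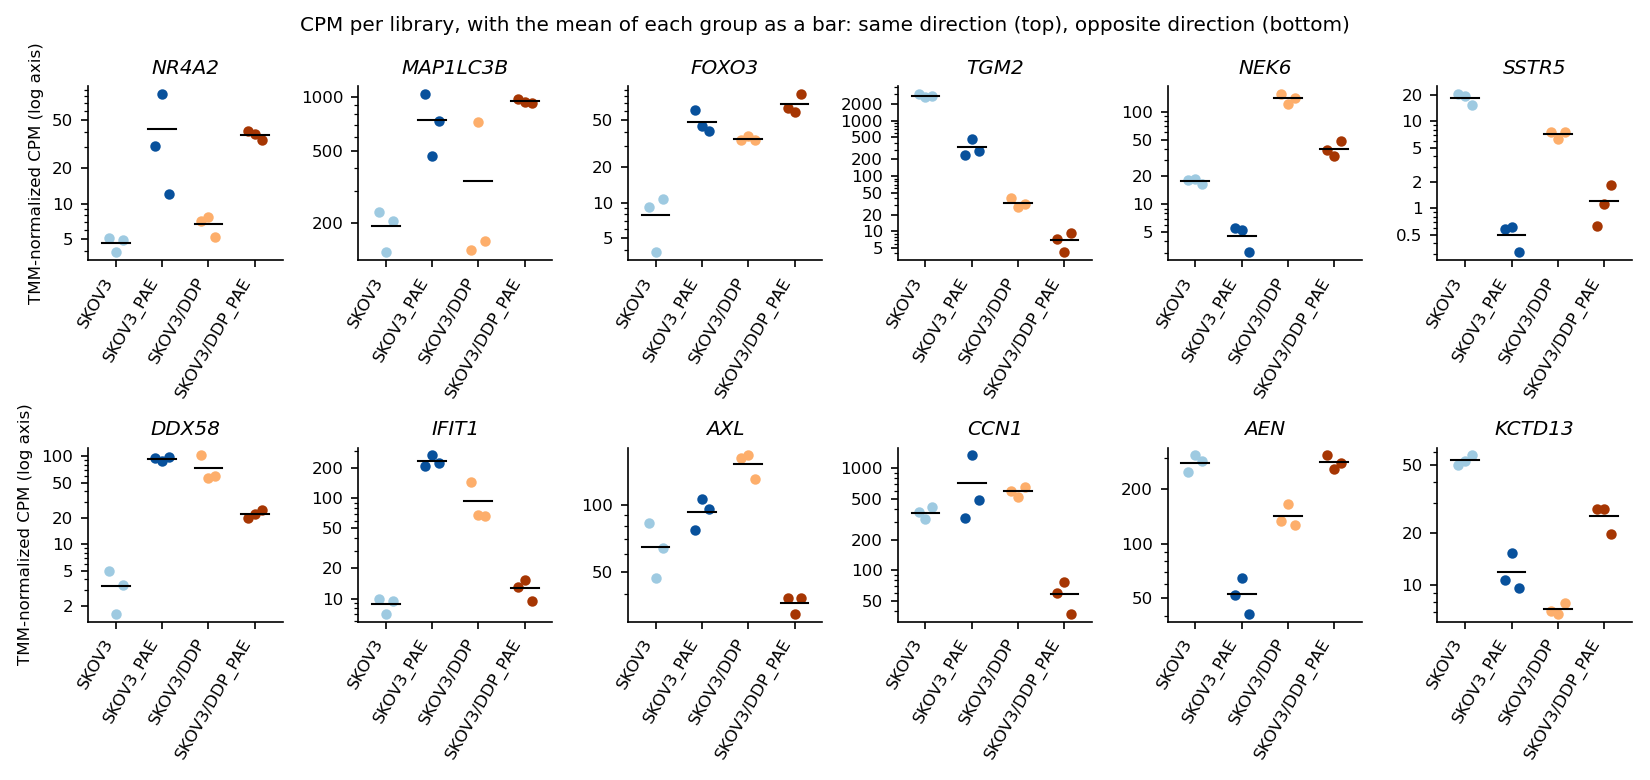
TMM-normalized CPM (log axis) of each library for 6 genes that moved the same way in both lines (top) and 6 that moved in opposite ways (bottom), with the group mean as a bar and 3 libraries per group. NEK6 is lower in every PAE library of both lines, while DDX58 runs from 1.62 to 4.97 CPM up to 88.4 to 97.1 in SKOV3 and from 56.7 to 102 CPM down to 20.1 to 24.4 in SKOV3/DDP.

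Most interferon-stimulated genes fell in SKOV3/DDP, while in SKOV3 they were called higher and lower at about the shares of all genes by TMM. Of the 20 listed, 15 were called lower in SKOV3/DDP by TMM and none higher (all genes tested, 14.7% and 11.8%). In SKOV3 8 were higher and 7 lower, near the shares of all genes (42.6% and 32.7%). Opposed were 6, all higher in SKOV3 and lower in SKOV3/DDP, against the 4.10% of all genes tested. As many, 6, were lower in both lines, against 6.82% of all genes tested. After removal of the trend SKOV3 had 10 higher and 3 lower (25.9% and 20.8% of all genes). SKOV3/DDP had 14 lower and none higher (16.5% and 15.4%). In that fit 9 were opposed in the same direction (4.45%) and 1 was lower in both lines (3.24%). The median of the list in SKOV3/DDP was -1.52 by TMM and -1.65 with the trend removed, but in SKOV3 it was -0.09 by TMM, 0.78 with the trend removed and 0.80 under library-size scaling, so the direction of the list as a whole in SKOV3 depends on the scaling. All genes tested had medians of 0.48 in SKOV3 and 0 in SKOV3/DDP by TMM, and of 1.36 in SKOV3 under library-size scaling. IFIT1, IFIT3 and DDX58, described next, were higher in SKOV3_PAE and lower in SKOV3/DDP_PAE in both fits.

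Promoter sequences of IFIT1 and IFIT3 are given because the letters of the interferon-stimulated response element stand in both, ahead of genes that moved in opposite directions in the lines. The 250 bases before each start are printed 5′ to 3′ on the gene's strand from RefSeq (GRCh38.p14), with capitals marking each match of that element (GAAA, 2 bases of any kind and GAAA) on either strand. IFIT1 is read from chr10:89392373-89392622 (plus strand) and IFIT3 from chr10:89327747-89327996 (plus strand).
IFIT1: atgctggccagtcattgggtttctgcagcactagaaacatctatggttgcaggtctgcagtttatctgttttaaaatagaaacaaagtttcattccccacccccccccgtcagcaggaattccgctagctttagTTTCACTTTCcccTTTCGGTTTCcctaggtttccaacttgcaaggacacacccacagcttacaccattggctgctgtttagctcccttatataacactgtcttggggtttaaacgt
IFIT3: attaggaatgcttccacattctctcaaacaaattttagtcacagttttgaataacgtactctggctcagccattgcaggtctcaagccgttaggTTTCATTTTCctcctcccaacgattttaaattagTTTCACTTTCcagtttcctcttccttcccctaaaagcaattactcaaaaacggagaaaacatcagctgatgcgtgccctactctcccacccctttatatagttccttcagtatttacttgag
The matches lay 94 to 103 and 107 to 116 bases before the start in IFIT1 and 113 to 122 and 147 to 156 bases before it in IFIT3. The 250 bases before DDX58, which was opposed as well, held no match of these letters. Those letters occurred in 12 of the 16 listed genes with a promoter entry and in 2.24% of the 12610 promoters of tested genes. They occurred in 14 of 232 promoters (6.03%) of genes higher in SKOV3 and lower in SKOV3/DDP in both fits, 2.35% of those higher in both lines, 1.61% of those lower in both and 1.11% of the reverse opposed class. These shares are a description of the letters, and the interferon genes themselves are part of the first class.

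IFIT1, which binds viral RNA, stood at 9.93, 7.07 and 9.41 CPM in SKOV3 and 210, 268 and 226 CPM in SKOV3_PAE. SKOV3/DDP cells gave 145, 67.9 and 67.2 CPM untreated and 13.1, 15.3 and 9.41 CPM with PAE. The groups did not overlap in either line, and the difference of the effects of IFIT1 was -7.62 ± 0.46 by TMM and -5.01 ± 0.46 with the trend removed. IFIT3, its partner, differed by -5.29 ± 0.50 (3.59 in SKOV3, -1.70 in SKOV3/DDP). DDX58, the RIG-I sensor of viral RNA (chr9:32455302-32526196, minus strand), stood at 4.97, 1.62 and 3.39 CPM in SKOV3 and 95.8, 88.4 and 97.1 CPM in SKOV3_PAE. The SKOV3/DDP libraries held 102, 56.7 and 59.1 CPM untreated and 20.1, 22.1 and 24.4 CPM with PAE. PAE left SKOV3 with more DDX58 than SKOV3/DDP, where untreated cells had the reverse order. Its effects were 4.82 ± 0.36 (adjusted p = 2.25e-08) and -1.71 ± 0.31 (adjusted p = 0.00128), a difference of -6.53 ± 0.47 (adjusted p = 1.42e-07), and 1.85, -1.90 and -3.75 with the trend removed.

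Other interferon genes took other courses. OAS1, which makes the second messenger that activates RNase L, was lower in both fits, at -0.91 in SKOV3 and -2.21 in SKOV3/DDP by TMM. ISG15, a ubiquitin-like modifier, was lower in both lines by TMM (-3.13 and -0.92) but higher in SKOV3 with the trend removed (1.10). IRF7, a factor of the interferon response, fell in SKOV3 (-4.74) and stood at -0.31 in SKOV3/DDP (adjusted p = 0.47), so its difference had the opposite sign (4.43) to that of IFIT1.

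Of 17 YAP and TEAD targets tested, 6 were higher in SKOV3 and lower in SKOV3/DDP by TMM, against 4.10% of all genes tested, and 6 with the trend removed, against 4.45%. In all, 11 were higher and 3 lower in SKOV3 by TMM (all genes tested, 42.6% and 32.7%). In SKOV3/DDP none was higher and 10 were lower (11.8% and 14.7%). Once the trend was removed the counts were 9 higher and 1 lower (25.9% and 20.8%), and none and 10 (15.4% and 16.5%). For CCN1, AXL, TEAD1 and CRIM1, 4 of the 6 opposed by TMM, the call in 1 of the lines was lost on leaving out single libraries, as given with each. The medians were 0.97 in SKOV3 and -1.09 in SKOV3/DDP by TMM and 1.61 and -1.08 with the trend removed, and they kept these signs under the 5 scalings tried. CCN1 (CYR61), a secreted matrix protein, stood at 371.6, 316 and 413 CPM in SKOV3 and 327, 1340 and 486 CPM in SKOV3_PAE. Untreated SKOV3/DDP gave 601, 527 and 657 CPM, and SKOV3/DDP_PAE 59.6, 76.2 and 37.5 CPM. The fall in SKOV3/DDP was clear (-3.36 ± 0.44), while the rise in SKOV3 (0.97 ± 0.40, adjusted p = 0.039) was 0.15 without SKOV3_PAE replicate 2, was also not called without any 1 of the 3 SKOV3 libraries, and those groups overlapped.

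AXL, a receptor tyrosine kinase of GAS6 (chr19:41219223-41261766, plus strand), stood at 82.8, 47.0 and 64.2 CPM in SKOV3 and 76.7, 106 and 95.2 CPM in SKOV3_PAE, which overlapped. The values in SKOV3/DDP were 161, 166 and 130 CPM untreated and 38.4, 32.7 and 38.2 CPM with PAE. Its effects were 0.52 ± 0.23 and -2.06 ± 0.23 by TMM and 2.03 and -1.88 with the trend removed, with differences of -2.58 ± 0.32 and -3.90 ± 0.26. By TMM the call in SKOV3 was lost on leaving out 10 of the 12 libraries, all but SKOV3 replicate 1 and SKOV3_PAE replicate 1, with effects of 0.34 to 0.74 over all 12 omissions. TEAD1, the DNA-binding partner of YAP, had effects of 3.70 and -1.09 by TMM and 0.94 and -1.23 with the trend removed, with differences of -4.78 and -2.18. CRIM1, a membrane protein that binds bone morphogenetic proteins, had 3.20 and -0.92 by TMM and 1.75 and -0.95 with the trend removed. The SKOV3/DDP call of TEAD1 was lost without untreated replicate 1, untreated replicate 3 or PAE replicate 1, and that of CRIM1 on leaving out 8 of the 12 libraries (-1.13 to -0.75 over all 12), all but SKOV3 replicates 1 and 2, untreated SKOV3/DDP replicate 2 and SKOV3/DDP_PAE replicate 3. F3, the coagulation starter tissue factor, rose in SKOV3 from a mean of 16.0 to 353 CPM and stood at 24.7 and 26.1 CPM in SKOV3/DDP.

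ANKRD1, a cardiac ankyrin repeat protein and a much used reporter of YAP, had the largest opposed effect by the ranking. It had no count in the 3 SKOV3 libraries and 1.39, 1.32 and 2.47 CPM in SKOV3_PAE, at least 20.1-fold higher by a floor of 3 counts over the group. The SKOV3/DDP libraries held 28.8, 42.7 and 15.4 CPM untreated and 0.736, 0.517 and 0.440 CPM with PAE, a change of -5.66 ± 0.49 (adjusted p = 2.64e-05). The levels in SKOV3_PAE were far below those of untreated SKOV3/DDP, although the directions were opposite. Its promoter is given because it holds the TEAD element letters GGAATG, marked by capitals, at 123 to 128 and 215 to 220 bases before the start (RefSeq, GRCh38.p14, chr10:90921088-90921337, minus strand).
ANKRD1: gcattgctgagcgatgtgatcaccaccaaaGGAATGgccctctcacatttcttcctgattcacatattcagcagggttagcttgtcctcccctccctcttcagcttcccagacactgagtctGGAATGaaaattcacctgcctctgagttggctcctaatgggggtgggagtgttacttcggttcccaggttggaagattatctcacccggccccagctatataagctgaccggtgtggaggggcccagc
GGAATG on either strand occurred in 4 of the 12 listed YAP and TEAD targets with a promoter entry, in 9.63% of all 12610 promoters and in 12.1% of those of genes higher in SKOV3 and lower in SKOV3/DDP.

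Immediate early and feedback genes of the MAPK pathway had more negative than positive differences. By TMM 12 of 22 were higher and 3 lower in SKOV3 (all genes tested, 42.6% and 32.7%), and none was higher and 6 were lower in SKOV3/DDP (11.8% and 14.7%). The difference was called positive in 2 and negative in 12 (25.5% and 37.4%). With the trend removed the counts were 13 and 2 (25.9% and 20.8%), 1 and 6 (15.4% and 16.5%), and 1 and 14 (18.3% and 21.6%). EGR1, an immediate early zinc finger factor, rose in SKOV3 from a mean of 10.8 to 338 CPM and stood at 348 and 412 CPM in SKOV3/DDP, a difference of effects of -4.72 (adjusted p = 0.00029). The transcription factor FOS followed the same pattern (3.39 and -0.10). KLF6, a zinc finger factor, was opposed in both fits, with effects of 3.23 ± 0.27 and -1.08 ± 0.25. The feedback inhibitors moved in SKOV3/DDP, where DUSP4, an ERK phosphatase, fell by -1.83 and SPRY4, an inhibitor of receptor signalling, by -1.51. SPRY4 was called higher in SKOV3 only narrowly (0.83 ± 0.36, adjusted p = 0.0493), and that call was lost on leaving out 9 of the 12 libraries, all but SKOV3 replicate 1, SKOV3_PAE replicate 3 and untreated SKOV3/DDP replicate 2, with effects of 0.24 to 1.19 over all 12 omissions.

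Other genes took the reverse course, lower in SKOV3 and higher in SKOV3/DDP. AEN, a nuclease of apoptosis (chr15:88604601-88632281, plus strand), stood at 249, 308 and 286 CPM in SKOV3 and 52.1, 64.9 and 41.2 CPM in SKOV3_PAE. SKOV3/DDP cells gave 133, 165 and 127 CPM untreated and 308, 259 and 281 CPM with PAE. With no overlap in either line its effects were -2.41 ± 0.22 and 1.00 ± 0.21, and the difference of 3.41 ± 0.30 (adjusted p = 4.32e-07) was 2.53 ± 0.25 with the trend removed.

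CDKN1A, the cell cycle inhibitor p21, fell in SKOV3 from a mean of 2324 to 236 CPM, and in SKOV3/DDP it averaged 1025 CPM untreated and 1633 CPM with PAE (0.67, adjusted p = 0.13 by TMM and 0.89, adjusted p = 0.04 with the trend removed). BBC3, the death effector PUMA, had effects of -3.26 and 1.12 by TMM, and with the trend removed the fall in SKOV3 was not called (-0.61, adjusted p = 0.076). SESN1, a stress-induced regulator of mTORC1, rose in SKOV3/DDP in both fits (1.63 and 1.47), whereas in SKOV3 it was 2.46 by TMM and -0.54 (adjusted p = 0.10) with the trend removed.

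The 5 genes ranked first by the rule in this direction were KCTD13, FAM222A, VASH1, WTIP and H2BC11. KCTD13, an adaptor of the cullin-3 ubiquitin ligase (chr16:29906335-29926226, minus strand), stood at 50.1, 52.9 and 57.0 CPM in SKOV3 and 10.7, 15.3 and 9.63 CPM in SKOV3_PAE. Untreated SKOV3/DDP gave 7.09, 6.82 and 7.84 CPM, and SKOV3/DDP_PAE 27.7, 27.9 and 19.9 CPM. The lines thus exchanged their order, with a difference of 3.96 ± 0.33 by TMM and 4.11 ± 0.33 with the trend removed, although KCTD13 overlaps ASPHD1 (8.70 CPM on average). FAM222A stood at 33.7, 25.8 and 33.5 CPM in SKOV3 and 2.50, 1.83 and 1.95 CPM in SKOV3_PAE. The values in SKOV3/DDP were 5.65, 7.32 and 5.02 CPM untreated and 41.1, 29.2 and 38.3 CPM with PAE, with effects of -3.89 and 2.59. VASH1, a tubulin carboxypeptidase and inhibitor of angiogenesis, went from 59.2 to 77.9 CPM down to 6.39 to 11 in SKOV3, and from 0.0577 to 0.253 CPM up to 0.660 to 1.42 in SKOV3/DDP. Its rise in SKOV3/DDP rested on 6 counts untreated and 60 with PAE. WTIP, a LIM domain protein (-3.24 and 1.71), and H2BC11, a histone H2B gene whose near-identical copies can share reads (-3.34 and 3.09), had smaller falls in SKOV3 with the trend removed (-2.48 and -1.53), as had FAM222A (-1.56). Among list members, PGD, of the pentose phosphate pathway and listed with the NRF2 targets, fell from 218 to 250 CPM to 68.7 to 82.9 in SKOV3 and rose from 125 to 206 CPM to 396 to 419 in SKOV3/DDP, and MVK, mevalonate kinase, listed with the cholesterol genes, had effects of -3.20 and 0.82 by TMM and -1.24 and 1.07 with the trend removed, its TMM call in SKOV3/DDP being lost without untreated SKOV3/DDP replicate 3 or SKOV3/DDP_PAE replicate 1.

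The rule also named genes higher in SKOV3 and lower in SKOV3/DDP. SERPINB2, the plasminogen activator inhibitor PAI-2, had effects of 4.70 ± 0.68 and -3.19 ± 0.81 by TMM and 2.74 and -3.29 with the trend removed. Its fall in SKOV3/DDP rested on 56 counts untreated and 7 with PAE. The groups overlapped there, at 0.189 CPM in untreated replicate 2 and 0.245 CPM in PAE replicate 1. EHF, an epithelial ETS factor, rested on 3 counts in SKOV3 against 1361 in SKOV3_PAE, a CPM ratio of 282 (95% counting interval 96.5 to 1371), and fell by -3.47 ± 0.39 in SKOV3/DDP. RGS9, a GTPase accelerator, rested on 3 and 44 counts in SKOV3, a ratio of 9.13 (2.93 to 46.0), and fell by -3.40 ± 0.34 in SKOV3/DDP. HSPA6, a strictly inducible heat shock protein, was scattered, at 6.12, 5.79 and 6.61 CPM in SKOV3, 796, 72.8 and 1.32 in SKOV3_PAE, 0.173, 105 and 0.428 in SKOV3/DDP and 0.147, 0 and 0.330 in SKOV3/DDP_PAE. Its groups overlapped in both lines, and single libraries held the high values. Without untreated SKOV3/DDP replicate 2 its effect there was -0.94 and the difference -6.50, neither called, the SKOV3 call was lost without SKOV3_PAE replicate 1 (2.59), and the SKOV3/DDP call also without any 1 of the SKOV3/DDP_PAE libraries. AKR1C3, an aldo-keto reductase of the NRF2 list with close relatives that can share reads, had effects of 3.20 and -2.13 by TMM and 1.46 and -2.20 with the trend removed.

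The largest differences outside the shared and opposed classes belonged to genes called in SKOV3 and not in SKOV3/DDP. RILP, an effector of the lysosomal GTPase RAB7, fell by -6.45 ± 0.98 in SKOV3 and stood at 2.21 ± 1.02 in SKOV3/DDP (adjusted p = 0.13), a difference of 8.66 ± 1.39. SKOV3/DDP_PAE replicate 3 carried the SKOV3/DDP value, at 1.98 CPM against 0.245 and 0.141 CPM in the other PAE libraries, and without it RILP stood at 0.28 there with a difference of 6.73, still called. NEDD8, a ubiquitin-like protein, fell by -5.57 ± 0.88 with 0.81 ± 1.01 in SKOV3/DDP. CXCL10, an interferon-induced chemokine, rose by 5.70 ± 0.61 with -2.48 ± 1.04 in SKOV3/DDP (adjusted p = 0.092), a difference of -8.19 ± 1.19. IGFBP5, a binding protein of insulin-like growth factors, rose by 4.43 in SKOV3, in SKOV3/DDP it rested on 7 counts against 1, and its difference was not called without untreated SKOV3/DDP replicate 2. CACNB2, a calcium channel subunit, had no count in SKOV3 and 62 in SKOV3_PAE, at least 12.9-fold higher, and overlaps NSUN6. HLA-E differed by 10.40 ± 2.45, but 117 CPM in SKOV3 replicate 2 and 29.9 CPM in SKOV3/DDP_PAE replicate 1 carried this value, the fall in SKOV3 was not called without the former (-1.75), and its reads can be shared with other HLA genes.

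De novo purine synthesis enzymes moved apart between the lines and between the fits. Of 9 tested, 5 were higher and 2 lower in SKOV3 by TMM (all genes tested, 42.6% and 32.7%). In SKOV3/DDP none was higher and 5 were lower (11.8% and 14.7%). With the trend removed 1 was higher and 2 lower in SKOV3 (25.9% and 20.8%). None was higher and 7 were lower in SKOV3/DDP in that fit (15.4% and 16.5%). IMPDH2, the entry step to guanine nucleotides (chr3:49024325-49029750, minus strand), fell in both lines. It stood at 490, 639 and 567 CPM in SKOV3 and 152, 175 and 162 CPM in SKOV3_PAE. The SKOV3/DDP libraries held 217, 236 and 195 CPM untreated and 95.6, 99.1 and 111 CPM with PAE. The falls of -1.79 ± 0.19 and -1.08 ± 0.19 differed by TMM (0.71 ± 0.26, adjusted p = 0.026) and by 0.11 ± 0.22 (adjusted p = 0.75) with the trend removed, and the first was not called without SKOV3 replicate 2 or 3 or untreated SKOV3/DDP replicate 3.

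PAICS, which carries out consecutive middle steps of the pathway (chr4:56435752-56464578, plus strand), was opposed in both fits. It stood at 18.3, 12.2 and 19.5 CPM in SKOV3 and 268, 234 and 295 CPM in SKOV3_PAE. SKOV3/DDP cells gave 169, 170 and 166 CPM untreated and 107, 88.9 and 98.6 CPM with PAE. Its effects were 4.0 ± 0.23 and -0.78 ± 0.20 (difference -4.78 ± 0.30) by TMM and 1.38, -0.89 and -2.27 with the trend removed, and the SKOV3/DDP call was lost by TMM without SKOV3/DDP_PAE replicate 2. PPAT, GART, GMPS and ADSS2 rose in SKOV3 by TMM (2.20 to 3.06), and with the trend removed none of these 4 rises was called. PFAS fell in both lines by TMM (-1.55 and -1.28), while in SKOV3 it stood at 0.09 with the trend removed, and it overlaps CTC1. ATIC, which closes the inosine ring, fell in SKOV3/DDP (-1.17) with a difference of -1.64 (adjusted p = 0.000482). ADSL fell in SKOV3/DDP (-0.77), was 0.00 in SKOV3 by TMM and -1.27 with the trend removed, and overlaps the more abundant SGSM3, and its SKOV3/DDP call was lost without untreated replicate 1 or PAE replicates 1 or 3.

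Part of the replication and mitosis genes fell in SKOV3/DDP, and their direction in SKOV3 depended on the trend. Of 26 tested, 17 were higher and 8 lower in SKOV3 by TMM (all genes tested, 42.6% and 32.7%). In SKOV3/DDP 1 was higher and 13 were lower (11.8% and 14.7%), and 10 were higher in SKOV3 and lower in SKOV3/DDP (4.10%). After removal of the trend SKOV3 had 4 higher and none lower (25.9% and 20.8%) and SKOV3/DDP 2 and 11 (15.4% and 16.5%). In that fit 1 gene was opposed in the same direction (4.45%). That gene was RRM2, the regulated subunit of ribonucleotide reductase, with effects of 2.45 ± 0.24 and -1.44 ± 0.24 by TMM and 0.57 and -1.49 with the trend removed. TOP2A, a topoisomerase of dividing cells, fell in SKOV3/DDP in both fits (-2.27 and -2.51), whereas in SKOV3 it was 2.52 by TMM and -0.75 (adjusted p = 0.056) with the trend removed. The difference stayed negative for TOP2A in both fits (-4.79 and -1.75).

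Of 20 heat shock genes tested, 12 were higher and 1 lower in SKOV3 by TMM, against 42.6% and 32.7% of all genes, and 10 and none with the trend removed, against 25.9% and 20.8%. In SKOV3/DDP 3 were higher and none lower in each fit, near the share of all genes called higher there (11.8% and 15.4%). The difference was negative in 12 and positive in 2 by TMM (37.4% and 25.5% of all genes), and in 6 and 1 with the trend removed (21.6% and 18.3%). HSPA8, the constitutive HSC70 chaperone, rose in SKOV3 from a mean of 210 to 2019 CPM and averaged 1824 and 926 CPM in SKOV3/DDP (-0.98, adjusted p = 0.16), a difference of -4.24 (adjusted p = 9.9e-05). HSPD1, the mitochondrial chaperonin, showed 3.50 and 0.18. The 3 called in SKOV3/DDP were HSPA4L, STIP1 and AHSA1, of which the cochaperone AHSA1 rose by 1.3 with -0.16 (adjusted p = 0.56) in SKOV3.

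Targets of ATF4, the factor of the integrated stress response, differed mostly by a positive value in the TMM fit. Of 26 tested, 8 were higher and 10 lower in SKOV3 (all genes tested, 42.6% and 32.7%). In SKOV3/DDP 4 were higher, near the share of all genes (11.8%), and none was lower (14.7%). The difference was positive in 13 and negative in 6 (25.5% and 37.4%). With the trend removed it was positive in 4 and negative in 1 (18.3% and 21.6%). In that fit 19.2% of the list was called, against 39.9% of all genes. SLC3A2, the heavy chain of amino acid transporters, fell by -1.55 in SKOV3 and rose by 1.91 in SKOV3/DDP by TMM, and the fall was -0.09 (adjusted p = 0.90) with the trend removed. PHGDH, the entry enzyme of serine synthesis, fell in SKOV3 in both fits (-2.48 and -1.44) and stood at 0.75 in SKOV3/DDP, with differences of 3.23 and 2.32. DDIT3, the death-linked factor CHOP, rose in SKOV3 (3.22) and stood at 0.00 in SKOV3/DDP.

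**Figure D4:**
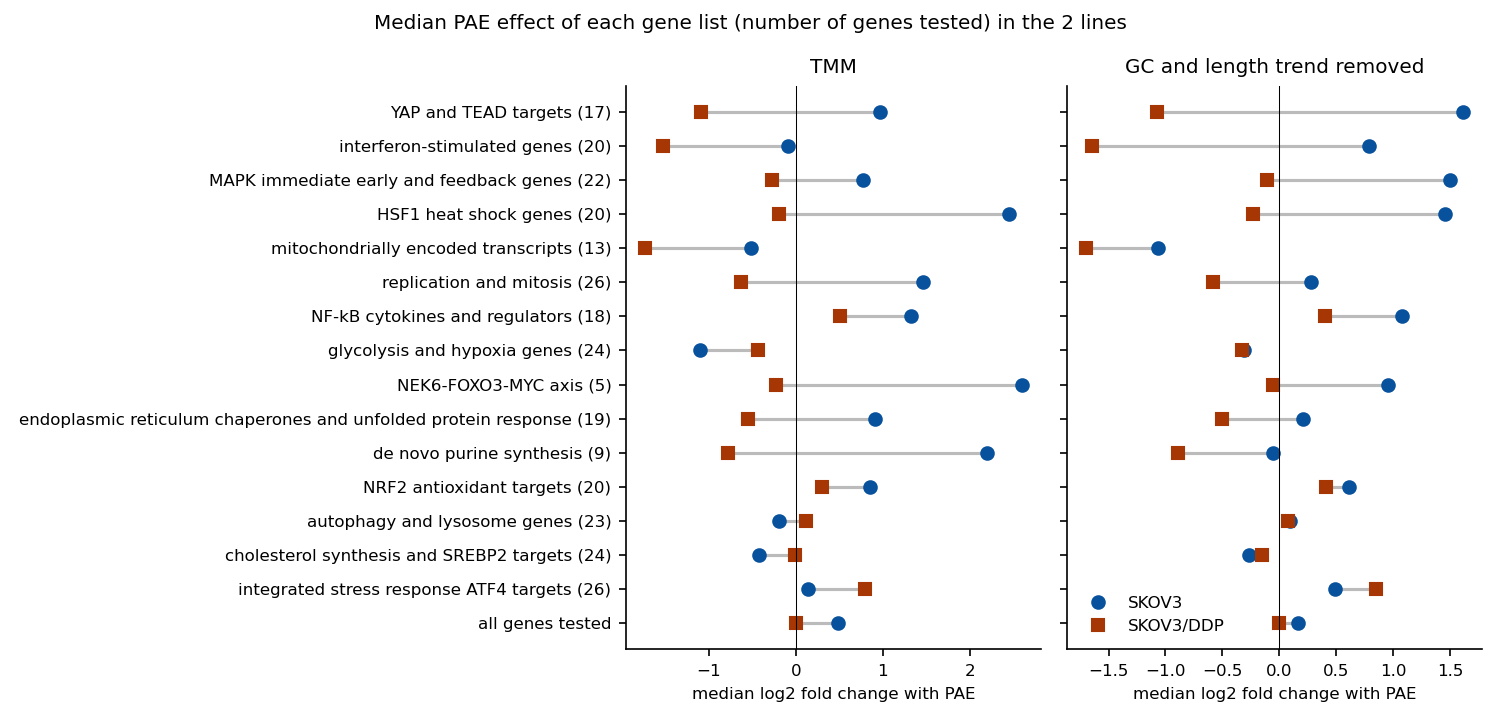
Median log2 fold change with PAE of the gene lists described (number of genes tested in brackets) in SKOV3 (circles) and SKOV3/DDP (squares), by TMM (left) and with the GC and length trend removed (right). YAP and TEAD targets stand at 0.97 and -1.09 by TMM and 1.61 and -1.08 with the trend removed, while the interferon list moves in SKOV3 from -0.09 to 0.78.

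Glycolysis and hypoxia genes fell in part in both lines by TMM, and with the trend removed most counts lay near the shares of all genes. Of 24 tested, 3 were higher and 12 lower in SKOV3 by TMM (all genes tested, 42.6% and 32.7%). In SKOV3/DDP 1 was higher and 5 were lower (11.8% and 14.7%), and 5 were lower in both lines (6.82%). With the trend removed the counts were 7 and 6 (25.9% and 20.8%) and 1 and 5 (15.4% and 16.5%), with 1 lower in both (3.24%). That gene was PKM, pyruvate kinase of muscle type, at -2.23 and -0.99 by TMM and -0.90 and -0.85 with the trend removed, where the difference was 0.05 ± 0.29. SLC2A1, the glucose transporter GLUT1, fell in SKOV3/DDP in both fits (-2.67 and -2.49), from a mean of 2710 to 426 CPM, and in SKOV3 by TMM (-2.00), with -0.43 (adjusted p = 0.11) after removal. Cholesterol synthesis genes showed no common course. By TMM 8 of 24 were higher and 12 lower in SKOV3 (42.6% and 32.7%), and 3 and 2 in SKOV3/DDP (11.8% and 14.7%). With the trend removed the counts were 4 and 6 (25.9% and 20.8%), and 3 and 2 (15.4% and 16.5%). SC5D, a late enzyme of the pathway, was higher in both lines in both fits, but its difference turned from -2.50 by TMM to 0.78 with the trend removed. PMVK, phosphomevalonate kinase, was lower in both lines in both fits, at -3.53 in SKOV3 and -1.18 in SKOV3/DDP by TMM and -0.60 and -0.91 with the trend removed, so the larger fall was not in the same line.

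The remaining lists were mixed, with counts given by TMM where no fit is named. They are set against all genes tested, of which 42.6% were higher and 32.7% lower in SKOV3 and 11.8% and 14.7% in SKOV3/DDP, and with the trend removed 25.9% and 20.8%, and 15.4% and 16.5%. Of 20 NRF2 antioxidant targets, 9 were higher and 6 lower in SKOV3, near those shares, and 1 higher and 4 lower in SKOV3/DDP, and with the trend removed 5 and 2, and 2 and 4. The quinone reductase NQO1 fell in SKOV3/DDP by -1.64 in both fits. In SKOV3 NQO1 stood at -0.29 by TMM (adjusted p = 0.30) and was called lower at -1.41 with the trend removed. Endoplasmic reticulum chaperones and unfolded protein response genes had 11 higher and 3 lower in SKOV3 and none higher and 2 lower in SKOV3/DDP of 19 by TMM, but 1 and 1, and 1 and 2 with the trend removed. EDEM1, which clears misfolded glycoproteins, kept a negative difference in both fits (-3.68 and -2.93). Of 18 NF-kB genes tested, 9 were higher and 5 lower in SKOV3 and none higher and 1 lower in SKOV3/DDP, and with the trend removed 10 and 1, and 2 and 1. TNFAIP3, the feedback inhibitor A20, rose in SKOV3 in both fits (2.85 and 2.04) with 0.43 in SKOV3/DDP. Of 23 autophagy and lysosome genes, 8 were higher and 9 lower in SKOV3. SKOV3/DDP had 6 higher and 1 lower, and 3 genes rose in both lines (5.80% of all genes tested). Trend removal gave 2 and 5 in SKOV3, 7 and 1 in SKOV3/DDP, and 2 genes that rose in both (4.27%). GLA, a lysosomal galactosidase, rose in SKOV3/DDP (1.69) with 0.29 in SKOV3 and a positive difference in both fits (1.40 and 1.77).

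Mitochondrially encoded transcripts fell in SKOV3/DDP throughout. All 13 protein-coding genes were called lower there in both fits, against 3 in SKOV3 by TMM and 8 with the trend removed, and none was called higher in either line in those fits. Of all genes tested, 14.7% were lower in SKOV3/DDP and 32.7% in SKOV3 by TMM, and 16.5% and 20.8% with the trend removed. The list medians were -0.51 in SKOV3 and -1.73 in SKOV3/DDP by TMM and -1.07 and -1.70 with the trend removed, but under library-size scaling the SKOV3 median was 0.37, so the direction in SKOV3 depends on the scaling. ND3, a subunit of complex I (chrMT:10059-10404, plus strand), was lower in both lines. It stood at 409.6, 414.2 and 420.3 CPM in SKOV3 and 72.5, 145 and 91.4 CPM in SKOV3_PAE. Untreated SKOV3/DDP gave 1833, 2305 and 2300 CPM, and SKOV3/DDP_PAE 541, 788 and 291 CPM, and the effects of -2.01 ± 0.33 and -1.99 ± 0.32 differed by 0.02 ± 0.44. COX2, a subunit of cytochrome oxidase, fell by -1.17 in SKOV3 and -1.73 in SKOV3/DDP by TMM and -1.07 and -1.70 with the trend removed. CYTB, cytochrome b of complex III, fell by -0.84 and -1.38 by TMM and -1.34 and -1.38 with the trend removed, and its TMM call in SKOV3 was lost without SKOV3 replicate 3, SKOV3_PAE replicate 1 or SKOV3_PAE replicate 3. COX3, of the same oxidase as COX2, fell in SKOV3/DDP by -2.64 and stood at -0.62 in SKOV3 (adjusted p = 0.11), a difference of -2.02 (adjusted p = 0.002). Nuclear copies of mitochondrial sequence can share reads with these genes.

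As a share of all counts, mitochondrial genes took 1.62%, 1.29% and 1.96% in SKOV3 and 1.82%, 2.34% and 2.44% in SKOV3_PAE. In SKOV3/DDP they took 8.66%, 9.57% and 11.2% untreated and 6.76%, 8.67% and 3.93% with PAE. The ranges overlapped in each line, so the mean rise from 1.62% (SD 0.338) to 2.20% (SD 0.330) and the mean fall from 9.81% (SD 1.28) to 6.45% (SD 2.38) each gave p = 0.2 in a 2-sided exact permutation test, where 3 libraries against 3 cannot go below 0.1. The difference of the 2 effects was -3.93 percentage points (exact permutation test over 400 arrangements, p = 0.02, adjusted over the 2 shares tested p = 0.04). It ranged from -5.03 to -2.67 with each library left out in turn. The arrangements permuted treatment within each line, so this p is against no effect in either line, not against equal effects. The untreated shares differed between the lines, so a difference in points weighs SKOV3/DDP more.

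**Figure D5:**
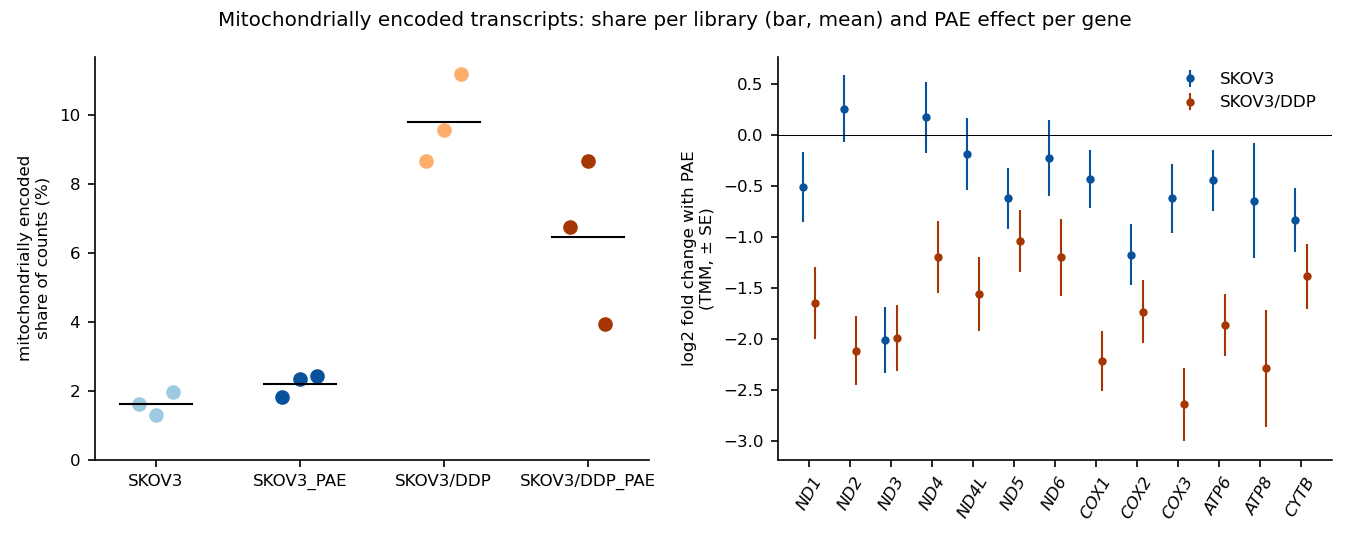
Left, mitochondrial share of counts (percent) of each library with the group mean as a bar, from 1.29% to 2.44% in SKOV3 and 3.93% to 11.2% in SKOV3/DDP. Right, log2 fold change with PAE (TMM) of the 13 mitochondrially encoded protein-coding genes in each line, with standard errors as bars; those of SKOV3/DDP lie below 0 for each gene.

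Low expression in 1 line limited part of the comparison. Of the tested genes, 2491 averaged below 1 CPM in both SKOV3 groups and 2988 in both SKOV3/DDP groups. Of these, 268 and 370 had no count in that line, so a response could not be read for them. The others rested on few counts there, and they include RGS9 in SKOV3 and MKX and VASH1 in SKOV3/DDP, whose effects are to be read with that limit. With genes restricted to at least 1 CPM in a group of each line, 63.0% of genes called in both lines moved the same way by TMM and 47.9% with the trend removed.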

How the data were processed

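Poly-A RNA of the 12 libraries was sequenced after NEBNext Ultra preparation. The authors deposited raw whole-number counts per gene, 1 file per library, with coordinates on GRCh38. The submitters' processing notes name HISAT2 2.0.5, StringTie 1.3.3b, DESeq2 and edgeR without their roles, and neither the program and strand used for counting nor the annotation's release is given in the sources used here. Samples were grouped by their labels. The 869 loci without a gene name were left out of the tests.

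Counts were analysed in R 4.3.3 with edgeR 4.0.16 (filterByExpr, TMM, quasi-likelihood test, 1 coefficient per group, 12 libraries), and p-values were adjusted by Benjamini-Hochberg over all genes tested. The same fit was repeated with offsets from a spline (5 degrees of freedom) per library on gene length and GC content. CPM are TMM-normalized, and standard errors are those of the fit. Folds of groups without a count are bounds against 3 counts, and intervals cover counting error only. The fits were tested on simulated counts. Alternatives were DESeq2 1.42.0, limma-voom (limma 3.58.1), library-size scaling, other filters, protein-coding genes alone, each line alone, a replicate block, the criteria of the methods (unadjusted p and a log2 fold change over 2) and leaving out each library.

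Named genes were protein-coding, averaging 10 CPM or more in some group. The first 6 shared genes in each direction and the first 5 opposed genes in each direction were taken by the smallest of the 4 absolute log2 fold changes over lines and fits, with the 3 largest differences of each sign among genes outside those classes, up to 4 shared or opposed members of each list by CPM, and all members of the NEK6 and purine lists. Other list members were named as examples after their values were seen. A gene that the rule names and a gene list are not reported here. Members and lists were chosen with earlier results of these data known.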

Additional observations from a re-analysis of the deposited data

Results flagged for a closer look

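The effect of PAE differed between the lines, by the interaction term of the fit across all genes (edgeR, adjusted p under 0.05 by TMM and with the trend removed), for each opposed gene named above. The differences of log2 fold changes (SKOV3/DDP minus SKOV3, TMM) below 0 were -13.52 for ANKRD1, -13.34 for HSPA6, -11.46 for EHF, -7.88 for SERPINB2, -7.62 for IFIT1, -6.53 for DDX58, -6.48 for RGS9, -5.33 for AKR1C3 and -5.29 for IFIT3. Further ones were -4.78 for PAICS, -4.78 for TEAD1, -4.33 for CCN1, -4.30 for KLF6, -4.12 for CRIM1, -3.89 for RRM2, -2.58 for AXL and -2.34 for SPRY4. Those above 0 were 6.48 for FAM222A, 6.43 for H2BC11, 6.04 for VASH1, 4.95 for WTIP, 4.02 for MVK, 3.96 for KCTD13, 3.41 for AEN and 3.07 for PGD. The values of ANKRD1, EHF and RGS9 rest on 0 to 3 counts in untreated SKOV3 and are fitted values, not bounds. That of VASH1 rests on 6 counts in untreated SKOV3/DDP. HSPA6 overlapped between the groups of each line, SERPINB2 between those of SKOV3/DDP, and CCN1 and AXL between those of SKOV3.

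The effects on the mitochondrial share of counts differed by -3.93 percentage points (exact permutation test against no effect in either line, p = 0.02).

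Loci without a gene name entered no comparison above. They took 0.132% of counts in SKOV3 and 0.258% in SKOV3_PAE, and 0.474% in SKOV3/DDP and 0.326% in SKOV3/DDP_PAE. The difference of these effects had p = 0.04 (exact permutation test against no effect in either line, adjusted p = 0.04 over the 2 shares). Within the lines p was 0.1 and 0.3, with 0.1 the smallest possible.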

How the results depend on the processing

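With the GC and length trend removed, genes called in SKOV3 went from 12895 to 7319, differences from 10778 to 6263, shared genes from 2162 to 1178, the same-sign share from 62.7% to 48.7% and the correlation from 0.115 to 0.024. The difference of SC5D turned from -2.50 to 0.78. The correlation was 0.050 with no filter on low counts, 0.177 with at least 10 counts in every library, 0.149 with each line fitted alone and 0.152 for genes of at least 1 CPM in a group of each line, an alternative chosen after seeing the data, and the same-sign share was 65.9% under library-size scaling. Under the criteria of the methods 1218 genes were called in SKOV3/DDP, 274 were shared and 224 opposed, with a same-sign share of 55.0%. The causes of these shifts were not tested, apart from the stricter criteria calling fewer genes.

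Deviations of same-numbered libraries from their group means correlated at -0.31 to 0.18. Libraries of different numbers were not compared in this way, so the values show no pairing by number and cannot exclude one. A replicate block gave 12701, 3997 and 10527 calls in SKOV3, SKOV3/DDP and the difference, 1911 shared and 1117 opposed genes. With the block and the trend removed together there were 6832 genes in SKOV3, 5749 differences and 1005 shared genes, a same-sign share of 48.2%, a correlation of 0.0268 and a difference of 0.78 for SC5D.

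Leaving out each library gave 12372 to 13173 genes in SKOV3, 2815 to 4998 in SKOV3/DDP, 10212 to 10727 differences, 1314 to 2332 shared and 724 to 1318 opposed genes, a correlation of 0.0851 to 0.141 and a same-sign share of 58.7% to 69.2%. Without untreated SKOV3/DDP replicate 1 or 3, SKOV3/DDP had 2815 and 2837 calls, with 1340 and 1314 shared and 764 and 801 opposed genes, and 724 were opposed without SKOV3/DDP_PAE replicate 1. With the trend removed, a choice of alternative made after seeing the data, the ranges were 6130 to 7770, 3496 to 5346, 5310 to 6196, 793 to 1340, 834 to 1257, -0.0106 to 0.0762 and 46.9% to 51.6%, the correlation being below 0, at -0.0106, without SKOV3/DDP_PAE replicate 2. The difference in the mitochondrial share ran from -5.03 to -2.67 points.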
